A study of Mus musculus with 8 samples.

Results

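The 6 mouse genes Vsig1, Npnt, Vit, Ctsk, Tmem159 and Plxdc2 were chosen because they were high in control cells and in cells rescued with full-length TAF4 and low in cells rescued with TAF4 that lacks its TAFH domain. They are 6 of 23281 genes in the deposited table and have 9 listed transcripts, and all 6 passed the filter on low values that left 12025 genes for testing. The levels in those 3 groups made the choice, so they are given as a description, and no test of them is read as a result. Only the knockout level, the transcripts used, the neighbouring genes and the related genes lie outside it. The cells were mouse embryonic fibroblasts (cultured connective tissue cells) of the C57BL/6 strain, and mRNA was sequenced from 8 samples, 2 in each of 4 groups. TAFH-deleted rescue cells (clones 1 and 2) are Taf4 -/- cells with a stable human TAF4 transgene without the TAFH domain. Full-length rescue cells (clones 1 and 2) are Taf4 -/- cells with a stable wild-type human TAF4 transgene. Knockout cells are Taf4 -/- (replicates 1 and 2), and control cells carry Taf4 loxp/- (replicates 1 and 2), although another label calls them wild type. Every group therefore carries at least 1 null allele. The labels name neither the promoter of the transgenes nor the origin of the clones, so the form of TAF4 and the history of a clone cannot be told apart.

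TAF4 is a subunit of TFIID, the general transcription factor that recognises core promoters and helps to assemble RNA polymerase II there. Its TAFH domain is a conserved protein-binding module that is also found in the ETO corepressors. E proteins, named in the title of the study, are basic helix-loop-helix transcription factors that bind the E-box, CANNTG. The 6 genes do not belong to one pathway. Npnt encodes nephronectin, a matrix ligand of integrins, and Vit encodes vitrin, a secreted protein with von Willebrand A domains. Ctsk encodes cathepsin K, the collagen-cleaving protease known from osteoclasts. Vsig1 encodes a surface protein of the immunoglobulin family known from gastric epithelium, Plxdc2 a membrane protein with a plexin-like domain, and Tmem159 an endoplasmic reticulum protein of lipid droplet formation.

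The start regions of 3 of the 6 genes were available from RefSeq (build GRCm38.p6), each from 250 bases before to 50 bases after an annotated start. They are shown because E proteins bind E-boxes. Capitals mark CANNTG, searched on both strands (the motif reads the same on each), and Npnt has 2 annotated starts.
Vsig1 (chrX:140907358-140907657, plus strand): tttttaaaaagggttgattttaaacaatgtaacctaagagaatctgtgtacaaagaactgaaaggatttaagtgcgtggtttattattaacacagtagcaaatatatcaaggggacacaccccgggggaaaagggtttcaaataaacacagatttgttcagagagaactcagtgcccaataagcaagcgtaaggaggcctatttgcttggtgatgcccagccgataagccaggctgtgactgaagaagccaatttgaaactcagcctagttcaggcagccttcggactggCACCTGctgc
Npnt, first start (chr3:132950242-132950541, minus strand): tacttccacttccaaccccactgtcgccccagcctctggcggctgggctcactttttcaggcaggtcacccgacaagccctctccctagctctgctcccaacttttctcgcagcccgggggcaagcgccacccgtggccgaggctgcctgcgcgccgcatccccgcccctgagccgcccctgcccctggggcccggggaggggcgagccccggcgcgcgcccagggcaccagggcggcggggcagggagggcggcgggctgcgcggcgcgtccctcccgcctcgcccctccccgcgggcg
Npnt, second start (chr3:132949765-132950064, minus strand): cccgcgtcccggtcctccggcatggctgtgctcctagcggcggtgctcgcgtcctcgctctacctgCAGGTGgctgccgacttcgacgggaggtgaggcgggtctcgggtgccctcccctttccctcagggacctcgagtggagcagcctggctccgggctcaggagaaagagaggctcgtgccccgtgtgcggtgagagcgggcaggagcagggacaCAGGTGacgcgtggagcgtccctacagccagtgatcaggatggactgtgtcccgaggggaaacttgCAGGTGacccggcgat
Ctsk (chr3:95498960-95499259, plus strand): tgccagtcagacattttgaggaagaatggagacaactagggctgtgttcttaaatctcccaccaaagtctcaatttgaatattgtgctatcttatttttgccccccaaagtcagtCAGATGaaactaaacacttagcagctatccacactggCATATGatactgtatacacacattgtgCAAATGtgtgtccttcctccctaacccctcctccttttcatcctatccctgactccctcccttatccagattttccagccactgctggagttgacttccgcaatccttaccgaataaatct
Base 1 is the start and base -1 the one before it. The Vsig1 window holds 1 match, CACCTG, from base 41 to base 46. No match lies in the first Npnt window. The second Npnt window holds 3, all CAGGTG, which reads as the other listed form, CACCTG, on the opposite strand. Their first bases lie at -184, -32 and 35 from the start. The Ctsk window holds 3 different matches: one begins at base -135 and reads CAGATG, one begins at base -98 and reads CATATG, and one begins at base -71 and reads CAAATG. Of 32851 mouse start windows of the same length, 72.3% hold CANNTG and 20.2% hold CACCTG on either strand, so such matches are common. The E-box CAGCTG (16.3% of all windows), the TATA-box letters TATAAA (13.6%) and the AP-1 letters TGANTCA (7.81%) were found in none of the 4 windows, each searched on both strands. CCAAT had 2 matches in the Vsig1 window and 0 in the other 3 (37.4% of all windows hold it), and GGGCGG had 4 in the first Npnt window and 0 in the other 3 (35.7% of all windows). The windows differ in composition: the dinucleotide CG occurred 5 times in Vsig1, 32 and 26 in Npnt and 2 in Ctsk, against a median of 7 over all windows. A match is a run of letters and does not show binding.

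Values are FPKM, a read density per kilobase and per library size. The steps between low FPKM values gave the whole number of fragments behind each value, and totals of 14300000 to 17300000 fragments per library. The control pair differed by less than sampling noise (chi-square per gene 0.746 ± 0.0289, SE, where independent reads give 1), and so did the knockout pair (0.596 ± 0.0268), so each pair was counted as 1 sample. Clones of the same rescue form did differ, with 1.75 ± 0.0503 for TAFH-deleted and 1.40 ± 0.0403 for full-length. Differences against knockout or control therefore have no replicate check of their own on that side. Fibroblast markers were present in all libraries (11 of 12 at 1 FPKM or more in at least 2 libraries, with summed levels of 839 to 1006 FPKM in TAFH-deleted, 1041 to 1056 in full-length, 1010 to 1011 in knockout and 999.5 in both control libraries). Of that list, Thy1 reached at most 0.0773 FPKM. Pdgfra, a growth factor receptor of mesenchymal cells, stood at 11.5 and 8.81 FPKM in TAFH-deleted, 52.9 and 56.7 in full-length, 17.4 and 17.3 in knockout and 51.3 and 52.2 in control libraries. It was the only one of the 11 whose mean was at least 2-fold lower in TAFH-deleted than in full-length rescue (7 were lower and 4 higher), and with Postn, periostin, one of 2 as low in knockout against control (3 lower and 8 higher). Pdgfra and Postn were singled out after their values were seen. Several of the other markers were very abundant, such as Vim at 120 to 146 FPKM. The most abundant genes had 92.7% to 97.4% of the positions where a read could begin in use, depending on the library. A change in RNA of such markers may therefore be understated, which was not tested. Whether a shift among fibroblast types had a part in the results was not tested, and fewer cells of a type and less RNA per cell cannot be told apart in bulk RNA. The defining markers of endothelium (Pecam1, Cdh5, Kdr, Tek, Tie1, Cldn5, Vwf) reached at most 0.299 FPKM. Low listed values need not mean low RNA: Gapdh, which every cell uses, was listed at 0.0682 to 0.599 FPKM and Actg1, cytoplasmic actin, at 1.35 to 1.68. Taf4a, the mouse Taf4 gene, was at 14.7 and 19.2 FPKM in TAFH-deleted, 14.5 and 15.0 in full-length, 12.5 and 12.4 in knockout and 11.1 and 11.5 in control libraries, so it was not lower in knockout than in control. The labels do not give the deleted exons, so its level does not check the knockout.

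Vsig1 and Npnt were close to absent from both knockout and TAFH-deleted cells. Vsig1 (transcripts NM_026103 and NM_030181, mm9 chromosome X, 137442147 to 137474011) stood at 0.0615 and 0.0492 FPKM in TAFH-deleted rescue, 28.5 and 28.8 in full-length rescue, 0.0540 and 0.0593 in knockout and 14.9 and 14.7 in control. Only 2 fragments stood behind the gene in each TAFH-deleted and each knockout library, against 1196 and 1193 in the full-length clones and 630 and 620 in control. TAFH-deleted and knockout libraries thus overlapped, while full-length rescue averaged 194% of the control level. Knockout was 261-fold lower than control, with a counting interval of 104 to 984. At 2 fragments a library, the ratio of TAFH-deleted to knockout was 0.978, with an interval of 0.181 to 5.21, so a difference of a few fold between them was not detectable at this depth. All such intervals here are exact 95% intervals that cover counting error only, and a ratio's interval rests on the summed fragments of both libraries of each group.

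Npnt (transcripts NM_001029836 and NM_033525, mm9 chromosome 3, 132545659 to 132613255) had the highest control level of the 6 genes and stayed below it in full-length rescue. It was at 0.425 and 1.92 FPKM in TAFH-deleted rescue, 25.3 and 23.0 in full-length rescue, 0.214 and 0.273 in knockout and 41.2 in each control library. No groups overlapped, though the share of all genes without overlap was not counted, and full-length rescue reached 58.6% of control. Npnt alone of the 6 was higher in both TAFH-deleted clones than in knockout: clone 1 had 21 fragments and clone 2 had 108, against 11 and 14 in the knockout libraries. The ratio of TAFH-deleted to knockout was 4.81 (interval 3.25 to 8.03), and it was mostly that of clone 2, whose level was 4.52 times that of clone 1. The log2 difference of 0.71 ± 0.49 (SE) did not pass the limma test (adjusted p = 0.799, clones higher in 2 of 2).

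Vit stood between these 2 genes and the rest. Vit (transcripts NM_001197028 and NM_028813, mm9 chromosome 17, 78907403 to 79026749) was at 0.544 and 0.277 FPKM in TAFH-deleted rescue, 28.9 and 25.8 in full-length rescue, 5.26 and 4.59 in knockout and 38.9 and 39.6 in control. Knockout kept 12.5% of the control level, and TAFH-deleted rescue was at 1.04%. Both TAFH-deleted clones lay below both knockout libraries, with 19 and 11 fragments against 196 and 171.

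Ctsk and Tmem159 had the most similar profiles among the 6, with an intermediate level in knockout and almost none in TAFH-deleted cells. Ctsk (NM_007802, mm9 chromosome 3, 95303208 to 95313284) was at 0.494 and 0.434 FPKM in TAFH-deleted rescue, 26.4 and 26.6 in full-length rescue, 6.08 and 6.24 in knockout and 18.4 and 19.2 in control. Tmem159 (NM_145586, mm9 chromosome 7, 127245940 to 127264500) was at 0.290 and 0.408 FPKM in TAFH-deleted rescue, 16.9 and 15.9 in full-length rescue, 6.94 and 7.497 in knockout and 19.2 and 20.8 in control. The groups did not overlap for either gene, but the share of all genes without overlap was not counted. Knockout held 32.8% of control for Ctsk and 36.1% for Tmem159, while TAFH-deleted rescue held 2.47% and 1.75%. Full-length rescue was above control for Ctsk, at 141%, and below it for Tmem159, at 81.8%.

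Plxdc2 lay closest to its control level in knockout. Plxdc2 (NM_026162, mm9 chromosome 2, 16277949 to 16673742) was at 3.57 and 1.27 FPKM in TAFH-deleted rescue, 46.8 and 40.5 in full-length rescue, 29.8 and 30.4 in knockout and 36.6 in each control library. Knockout kept 82.2% of the control level, yet the TAFH-deleted clones, which are knockout cells with an added transgene, were at 6.62% of it. Its fragments numbered 153 and 62 in the TAFH-deleted clones, against 1325 and 1350 in the knockout libraries.

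**Figure D1:**
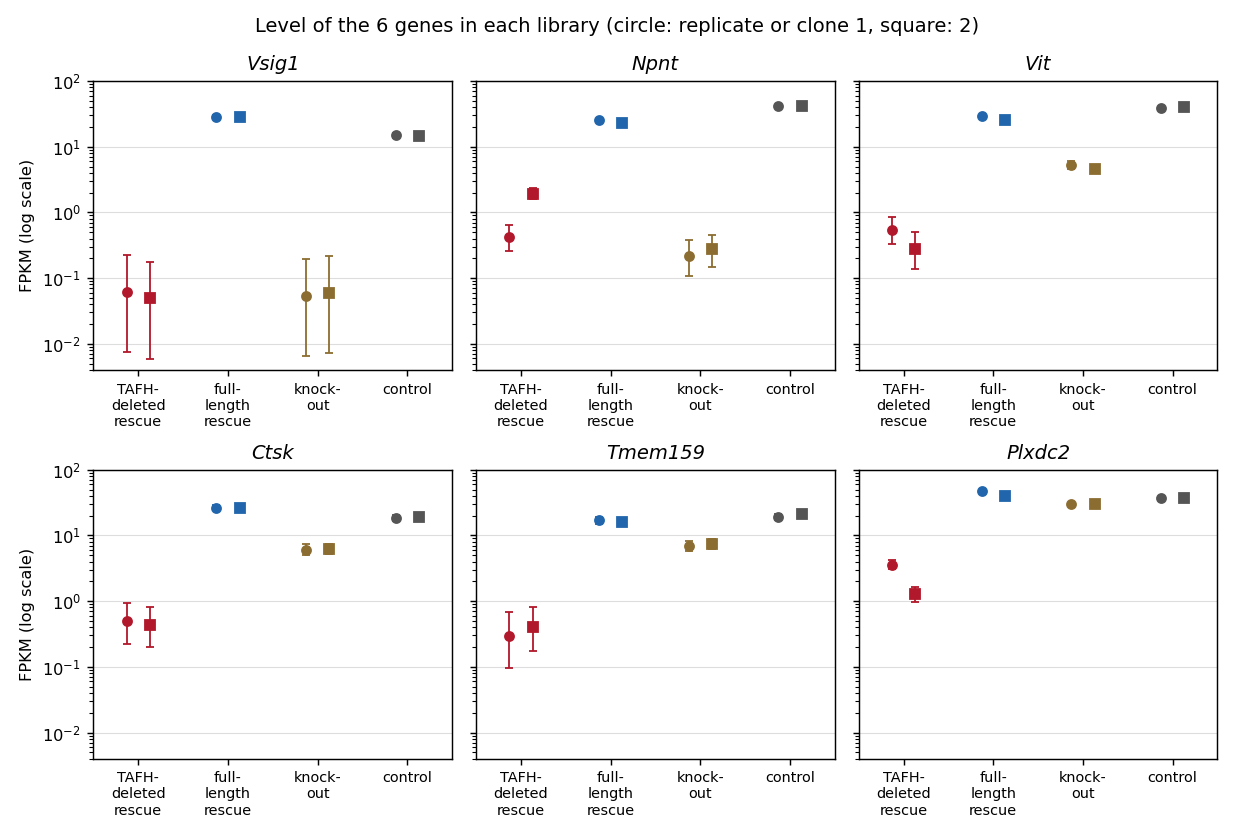
FPKM (log axis) of the 6 genes in each library, by group. Circles are replicate or clone 1, squares 2, and bars are 95% counting intervals of single libraries. Knockout libraries lie level with TAFH-deleted clones for Vsig1, below them for Npnt, and above them for Vit, Ctsk, Tmem159 and Plxdc2.

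Knockout against control addresses the effect of Taf4 loss. In knockout, 5 of the 6 genes were at least 2-fold lower on the log2(FPKM + 1) scale, which held for 5.76% of all genes tested. The control level was part of the choice, and of the 203 genes called lower in TAFH-deleted than in full-length rescue 43.8% were as low in knockout. The log2 differences were -5.08 for Npnt, -3.90 for Vsig1, -2.76 for Vit, -1.47 for Ctsk, -1.35 for Tmem159 and -0.27 for Plxdc2. None passed the limma test, in which 1 averaged sample stands on each side and takes its spread from the clones, with adjusted p-values from 0.128 for Vsig1 and Vit to 0.877 for Plxdc2. That test called 0 of 12025 genes, with 1108 at an unadjusted p under 0.05. With all 8 libraries counted as samples, the 5 genes other than Plxdc2 passed (adjusted p between 6.2e-05 and 0.00105), and Plxdc2 did not (adjusted p = 0.534). That setting called 2857 of 12025 genes, 1724 of them lower. It counts as separate samples the control and knockout pairs, which differed by less than sampling noise. The authors' deposited table, from Cuffdiff, lists q = 5.23e-07 for Plxdc2 and calls it changed in this comparison. It also calls at least 1 transcript of each of the other 5 genes changed. The share of all transcripts so called was not counted.

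Full-length rescue against knockout addresses the return of these genes with human TAF4. In full-length rescue, 5 of the 6 genes were at least 2-fold higher than in knockout, against 2.85% of all genes tested. The full-length level was part of the choice, and of the 203 genes called lower in TAFH-deleted than in full-length rescue 55.7% were as high against knockout. The log2 differences were 4.81 for Vsig1, 4.34 for Npnt, 2.25 for Vit, 1.94 for Ctsk, 1.08 for Tmem159 and 0.52 for Plxdc2. Both clones were above both knockout libraries for each of the 6, but the share of all genes with that order was not counted. No gene passed the limma test here (0 of 12025, with 1602 at an unadjusted p under 0.05, adjusted p between 0.171 and 0.686 for the 6). Counted as 8 samples, the 5 genes other than Plxdc2 passed, but so did 2998 of 12025 genes, 1263 of them higher. Relative to control, full-length rescue ranged from 58.6% for Npnt to 194% for Vsig1, with Vit at 69.6%, Tmem159 at 81.8%, Plxdc2 at 119% and Ctsk at 141%. Npnt, with the highest control level of the 6, was lowest relative to control, and Vsig1, with the lowest, was highest. The control level is the divisor of these percentages, and both levels were part of the choice, so no relation is read from this order. The genes between did not all follow it: Plxdc2 had a higher control level than Tmem159 and also a higher percentage.

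Whether TAF4 without the domain leaves these genes at the knockout level can be read from TAFH-deleted rescue against knockout. TAFH-deleted rescue was at least 2-fold lower than knockout for 4 of the 6, Vit, Plxdc2, Ctsk and Tmem159, which held for 2.94% of all genes tested. The TAFH-deleted level was part of the choice, and among the 203 genes called lower than in full-length rescue 35% were also at least 2-fold lower than in knockout. Of all genes tested, 5.94% were at least 2-fold lower in TAFH-deleted than in full-length rescue, 33.9% of those were as low against knockout, and 2.01% of all genes were lower against both. Both clones lay below both knockout libraries for these 4 genes, as they did for 23.5% of all genes tested. Knockout exceeded TAFH-deleted rescue 20.7-fold for Tmem159 (counting interval 11.7 to 38.9) and 13.3-fold for Ctsk (8.25 to 22.9). For Plxdc2 it was 12.4-fold (11.1 to 14.8) and for Vit 12.0-fold (8.67 to 18.9). The log2 differences were -3.27 ± 0.46 (SE) for Plxdc2, -2.61 ± 0.21 for Tmem159, -2.29 ± 0.20 for Ctsk and -2.08 ± 0.24 for Vit. None passed the limma test over all genes (adjusted p = 0.437, 0.416, 0.416 and 0.417 in that order, with 0 of 12025 genes called and 789 at an unadjusted p under 0.05). All 4 passed with 8 libraries counted as samples (adjusted p = 0.00633, 0.000528, 0.000414 and 0.00204 in the same order). That setting called 1074 of 12025 genes, 577 of them lower. The authors' deposited table lists q = 6.05e-06 for Plxdc2, 0.000895 for Tmem159 and 0.00375 for Ctsk here. For the longer Vit transcript the authors' deposited table lists p = 0.993. Its FPKM there was 3.67e-05 in one TAFH-deleted clone and 3.72e-05 in the other, against 5.26 and 4.59 for the knockout libraries.

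**Figure D2:**
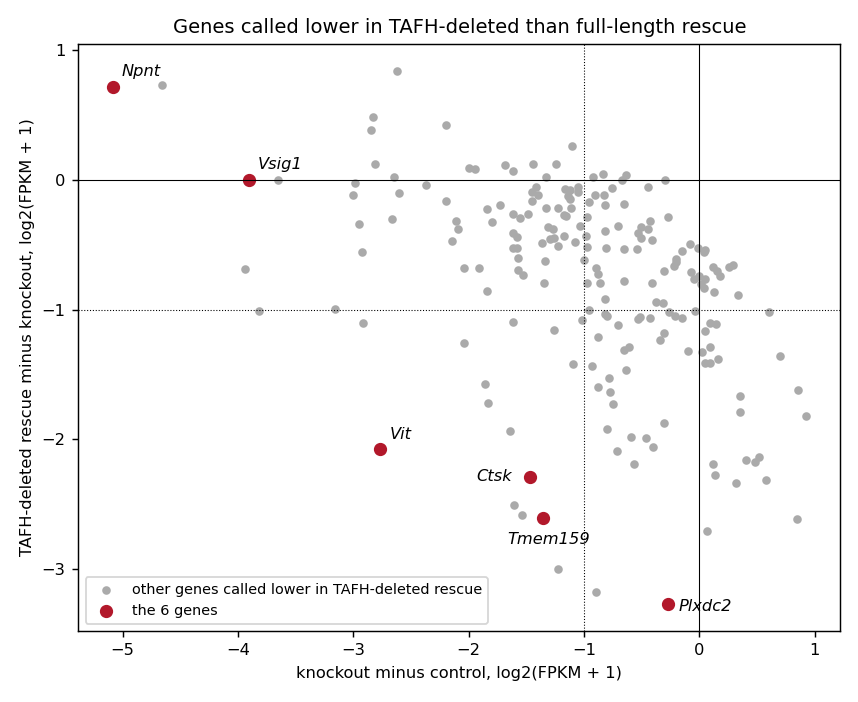
Log2(FPKM + 1) differences of the 203 genes called lower in TAFH-deleted than in full-length rescue, knockout minus control on the horizontal axis and TAFH-deleted rescue minus knockout on the vertical axis. Both axes share the knockout libraries, and dotted lines mark 2-fold. The 6 genes (red) run from Npnt and Vsig1, low in knockout and not lower with the deleted form, to Plxdc2, near its control level in knockout and at -3.27 against it with the deleted form.

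Between the rescue forms, the difference on which the genes were chosen was -4.81 for Vsig1, -4.33 for Vit, -4.23 for Ctsk, -3.79 for Plxdc2, -3.69 for Tmem159 and -3.62 for Npnt on the log2(FPKM + 1) scale. The limma test called 203 genes lower, which is 1.69% of those tested. The 6 stand at ranks 1, 4, 5, 8, 10 and 12 by size among them, which follows from how they were chosen. Npnt and Plxdc2 were not called with a pseudocount of 0.1 or without a filter on low values. The choice had no numeric threshold, and genes between them in that order, such as Lama4 (a laminin chain, -4.51), Rspo3 (a Wnt activator, -4.45) and Dcn (decorin, -3.96), were left out. The fold itself was largest for Vsig1, whose full-length clones exceeded the TAFH-deleted clones 517-fold (counting interval 209 to 1969), and smallest for Plxdc2, at 18.0-fold (16.2 to 21.4). With full-length clone 1 or clone 2 left out this comparison called 0 genes, none of the 6 included, and with TAFH-deleted clone 1 or clone 2 left out it called 6722 and 4806.

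The 2 TAFH-deleted clones did not follow one order. For Npnt clone 2 stood above clone 1, with counting intervals of 1.58 to 2.32 and 0.263 to 0.650 FPKM that do not meet. For Plxdc2 clone 1 stood above clone 2 by 2.81 times, again with separate intervals (3.03 to 4.19 and 0.976 to 1.63 FPKM). For Vit the intervals overlapped (0.327 to 0.849 FPKM in clone 1 and 0.138 to 0.495 in clone 2), and Vsig1, Ctsk and Tmem159 differed by less than 1.5 times on a few fragments each. Full-length clones were closer, at most 1.16 times apart for any of the 6.

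Transcript estimates add a limit for the genes with 2 transcripts. In the full-length clones NM_030181 made up 80.5% and 76.0% of Vsig1 FPKM, and in control libraries 77.5% and 69.5%. For Npnt, NM_001029836 made up 65.2% and 75.7% in full-length clones and 73.4% and 65.4% in control, but practically all of the 21 and 108 fragments in TAFH-deleted clones and of the 11 and 14 in knockout. Practically all Vit fragments were assigned to NM_028813 (2720 bases) in full-length, knockout and control libraries, and practically all to NM_001197028 (2654 bases) in both TAFH-deleted clones. Those clones had 19 and 11 Vit fragments, and whether any of these covered bases that tell the 2 transcripts apart is not recorded in the table. Summed gene FPKM depends slightly on this split, because the transcripts differ in length. The 2 Vsig1 fragments gave 0.0540 FPKM in knockout replicate 1, where they were assigned to NM_030181 (2707 bases). In knockout replicate 2, where practically all went to NM_026103 (2482 bases), they gave 0.0593. None of the 6 overlapped another listed gene, and at most 37.4% of the positions where a read could begin were in use in any of them, against up to 97.4% in the most abundant genes.

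No tested neighbouring gene passed the same test, but with 17 tested, 0 cannot be told from the share of all genes that passed. Of the 24 nearest genes, 2 on each side of each of the 6 along the mm9 chromosomes, 17 were tested and 0 passed in TAFH-deleted against full-length rescue, where 2.62% of all genes passed in either direction. None differed 2-fold on the log2(FPKM + 1) scale, 10 were lower and 7 higher, and the median log2 difference was -0.10, against 0.06 for all genes tested. That scale compresses low values. Nebl, 595 kilobases from Plxdc2, was at 0.152 and 1.33 FPKM in TAFH-deleted and 0.0844 and 0 in full-length rescue, a log2 difference of 0.65 ± 0.38 (SE). Arnt, a helix-loop-helix partner of the hypoxia and dioxin receptors that ends 2.05 kilobases from Ctsk, was at 38.2 and 25.5 FPKM in TAFH-deleted rescue and 41.2 and 42.8 in full-length rescue. Psmd10, a proteasome chaperone 8.95 kilobases from Vsig1, was at 46.0 and 32.0 FPKM in TAFH-deleted rescue, against 37.9 and 44.7 in full-length rescue. Strn, a calmodulin-binding scaffold 26.6 kilobases from Vit, was at 15.1 and 17.0 FPKM in TAFH-deleted rescue, against 16.4 and 16.1 in full-length rescue. Ctss, the cathepsin S gene 17.4 kilobases from Ctsk, stayed below the filter, at 0.0609 and 0.107 FPKM in TAFH-deleted and 0.967 and 0.668 in full-length clones. Most X-linked genes differed from Vsig1 in direction: 329 of 381 tested X genes were higher in TAFH-deleted than in full-length rescue, with a median of 0.59. Of these X genes 53 were called higher and 7 lower, and the 7 are 1.84% of them, against 1.69% called lower among all genes. Vsig1 was chosen for being low.

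**Figure D3:**
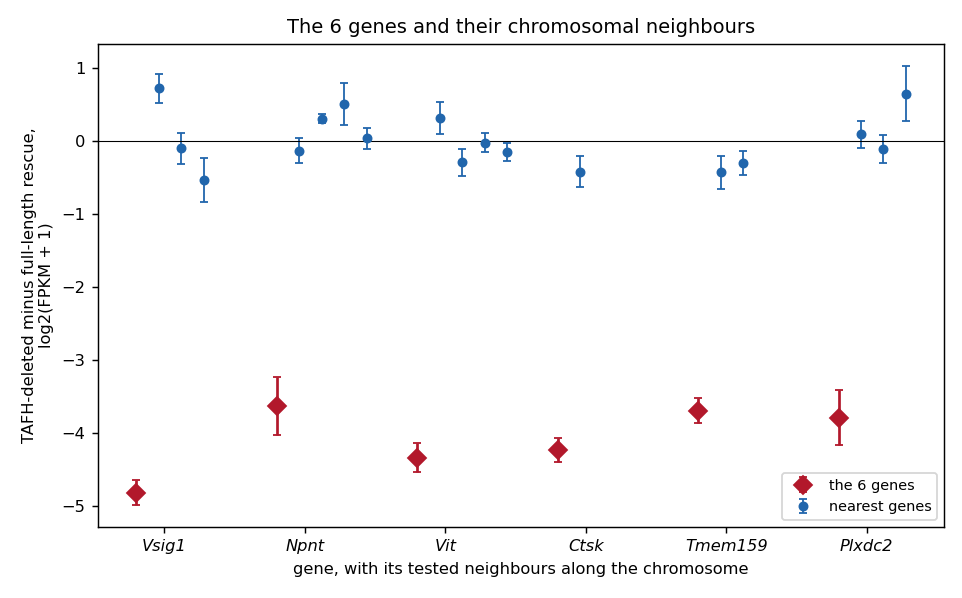
Log2(FPKM + 1) difference of TAFH-deleted minus full-length rescue for each of the 6 genes (diamonds) and its tested neighbours among the 2 nearest genes on each side (circles), with bars of 1 SE. The 6 genes, chosen on this difference, lie between -4.81 and -3.62, and the 17 neighbours lie within 1 of 0.

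The genes whose profiles were most like each of the 6 were found by the root mean square difference of centred log2(FPKM + 1) profiles over 6 samples (4 clones, averaged knockout, averaged control). Candidates left out the 6 themselves and genes with predicted, clone-type or small RNA names. Names ending in Rik and names beginning with Rn were among those left out. A gene so named, such as 9930013L23Rik, may therefore lie nearer than those given. Ctsk was nearest to Lama4 (0.14), which was at 0.180 and 0.179 FPKM in TAFH-deleted, 24.5 and 27.1 in full-length, 5.79 and 5.59 in knockout and 19.4 and 19.3 in control libraries. Dio3os, a non-coding RNA beside Dio3 whose strand the counting may not have kept apart (0.43), and Rspo3 (0.44) followed. Tmem159 was nearest to Dio3, which encodes the enzyme that inactivates thyroid hormone (0.21), Sod3, extracellular superoxide dismutase (0.32), and Tusc1 (0.36). Plxdc2 was nearest to Slc1a6, a glutamate transporter (0.22), which was at 8.55 and 2.06 FPKM in TAFH-deleted, 66.4 and 54.9 in full-length, 46.5 and 46.6 in knockout and 53.9 and 52.5 in control libraries. Rspo3 (0.33) and Sod3 (0.34) were next to it. Vit was nearest to Lama4 (0.38), Dcn (0.50) and Dio3 (0.56). Npnt had Fmod, a collagen-binding proteoglycan (0.56), Dcn (0.57) and Gpnmb, a membrane glycoprotein (0.62). Vsig1 had Col8a2, a short-chain collagen (0.53), Dcn (0.67) and Gpnmb (0.76). For Npnt and Vsig1 no candidate gene lay within 0.5. Among the 6 themselves, Ctsk and Tmem159 were closest (0.34) and Npnt and Plxdc2 farthest apart (1.67).

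**Figure D4:**
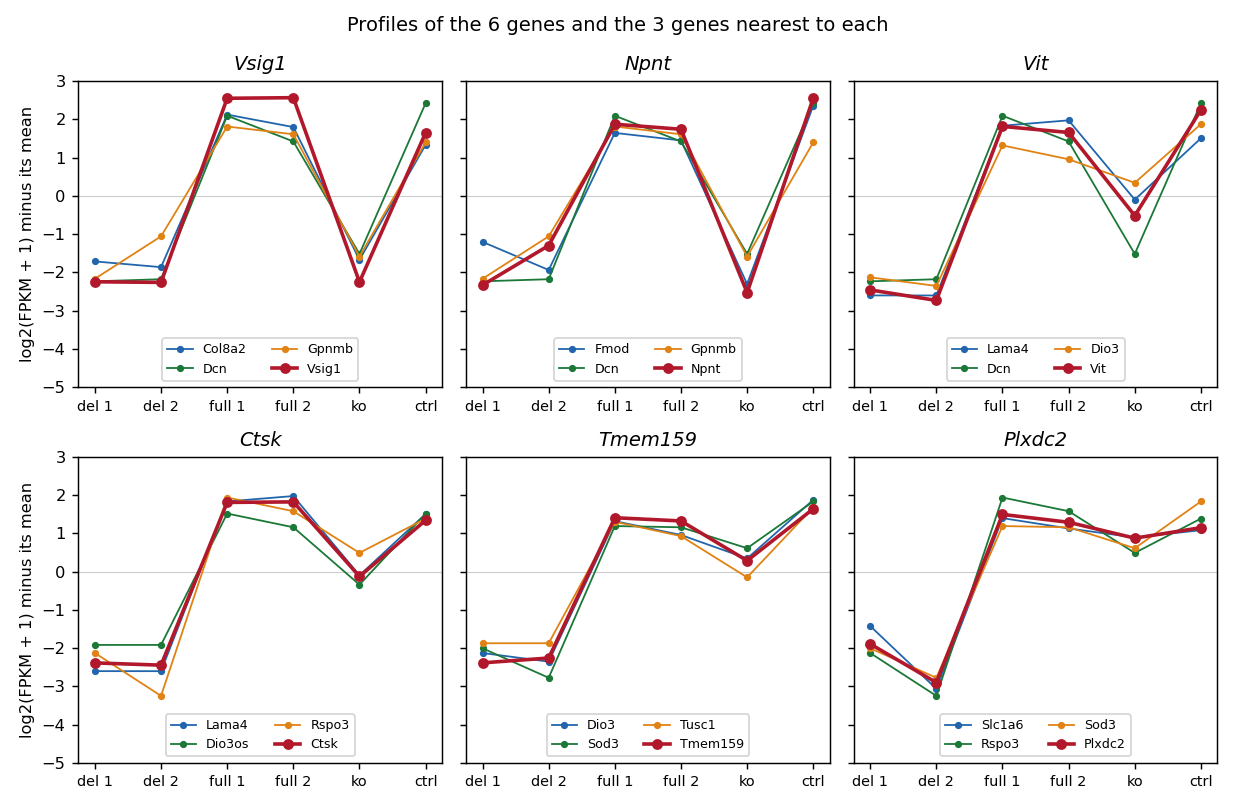
Centred log2(FPKM + 1) profiles of each of the 6 genes (thick red line) and its 3 nearest candidate genes, over TAFH-deleted clones (del 1, del 2), full-length clones (full 1, full 2), averaged knockout (ko) and averaged control (ctrl). Ctsk and Lama4 lie almost on one line, at a difference of 0.14, and the knockout point sets the panels apart.

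Genes related to the 6 as binding partners, protein family relatives or members of the same process were read from lists, with the E-protein axis added. They were read in the same comparison of TAFH-deleted with full-length rescue, where 2.62% of all genes passed. Among nephronectin partners, 1 of 5 tested genes passed. It was Itga8, the integrin chain that with Itgb1 forms the nephronectin receptor of the developing mouse kidney. Itga8 was at 0 and 0.0663 FPKM in TAFH-deleted, 3.92 and 2.69 in full-length, 0.218 and 0.278 in knockout and 1.77 and 1.85 in control libraries, a log2 difference of -2.04 ± 0.21 (SE, adjusted p = 0.0438, lower in 2 of 2 clones). Both knockout libraries lay below both control libraries. The share of all genes with that order was not counted, and each of these pairs differed by less than sampling noise. Its partner chain Itgb1 was at 107 and 99.7 FPKM in TAFH-deleted and 88.7 in each full-length clone. The median of the 5 was -0.23, with 3 lower and 2 higher, and 0.0045 with 2 lower and 3 higher after quantile normalization.

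Of 8 tested junctional and adhesion proteins of the immunoglobulin family, to which Vsig1 belongs, 3 passed and all 3 were lower. They were the Clmp gene (listed as 9030425E11Rik), Jam2, a junctional adhesion molecule, and Pvrl2, the adhesion receptor nectin-2. Clmp was at 2.50 and 2.33 FPKM in TAFH-deleted, 12.6 and 11.05 in full-length, 14.5 and 14.6 in knockout and 22.1 in each control library (log2 difference -1.91 ± 0.17, SE, adjusted p = 0.0398). Both knockout libraries lay above both TAFH-deleted clones, as they did for 23.5% of all genes tested. Jam2 was low throughout, at 0.0912 and 0.147 FPKM in TAFH-deleted and 1.76 and 1.82 in full-length clones (adjusted p = 0.0453). Pvrl2 was at 34.2 and 25.9 FPKM in TAFH-deleted and 69.3 and 67.4 in full-length clones (adjusted p = 0.0497). The median of the list was -0.68, with 5 lower and 3 higher, against 0.06 for all genes. Of these 4 genes, Itga8, Jam2 and Pvrl2 no longer passed after quantile normalization (adjusted p = 0.0536, 0.0801 and 0.0522). Itga8, Clmp and Pvrl2 no longer passed without a filter on low values (adjusted p = 0.0921, 0.0529 and 0.134), and Jam2 and Pvrl2 with a pseudocount of 0.1 (adjusted p = 0.0512 and 0.0559). All 4 failed with full-length clone 1 or clone 2 left out (adjusted p between 0.396 and 0.588).

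The other lists had no call. The LCCL and von Willebrand A domain relatives of Vit (9 tested, 6 lower and 3 higher) had a median of -0.78, and of -0.41 after quantile normalization. Of these, Matn2, a matrilin, was at 72.9 and 31.3 FPKM in TAFH-deleted and 61.9 and 58.4 in full-length clones, and Coch, cochlin, at 2.71 and 19.1 in TAFH-deleted against 29.8 and 37.5 in full-length clones. Plexin-domain and tumour endothelial marker genes (11 tested, 4 lower and 7 higher) had a median of 0.05, which turned to -0.06 with 6 lower and 5 higher after quantile normalization. Cttn, cortactin, was at 76.8 and 72.6 FPKM in TAFH-deleted and 65.5 and 67.8 in full-length clones, and Nid1, a basement membrane protein, at 57.3 and 56.9 in TAFH-deleted against 72.0 and 69.8 in full-length clones. Cathepsins and their inhibitors (12 tested, 8 lower and 4 higher) had a median of -0.11, and of -0.23 with 9 lower and 3 higher after quantile normalization. Here Cst3, cystatin C, was at 161 and 133 FPKM in TAFH-deleted and 133 in each full-length clone, and Ctsd, cathepsin D, at 129 and 114 in TAFH-deleted against 110 and 112 in full-length clones. Less abundant cathepsins differed more. Ctsh was at 2.07 and 7.47 FPKM in TAFH-deleted against 31.5 and 33.3 in full-length clones (log2 difference -2.71, limma adjusted p = 0.0754). Ctsf (-2.02) and Ctso (-1.99) followed. Lipid droplet genes (11 tested, 7 lower and 4 higher) had a median of -0.13, and Plin2, a droplet coat protein, was at 53.3 and 69.1 FPKM in TAFH-deleted against 56.8 and 48.8 in full-length clones. Dgat2, a triglyceride synthase, was at 54.7 and 41.7 FPKM in TAFH-deleted against 61.6 and 55.3 in full-length clones. Cideb had the largest difference of the lipid droplet list (log2 difference -1.67, limma adjusted p = 0.0756). It was at 1.54 and 0.438 FPKM in TAFH-deleted against 4.89 and 5.29 in full-length clones. All 7 E-protein and Id genes had positive differences, none of which passed, with a median of 0.17, and after quantile normalization 5 were higher and 2 lower. Id3 was at 132 and 115 FPKM in TAFH-deleted and 109 and 110 in full-length clones, and Id1 at 96.7 and 108 in TAFH-deleted against 80.4 and 64.5 in full-length clones. In knockout Id3 was at 133 FPKM in each library, and in control at 108 and 109. The most abundant genes had 92.7% to 97.4% of the positions where a read could begin in use, depending on the library. Levels of abundant genes such as Id3, Itgb1, Cst3 and Ctsd may therefore be capped, and library totals differed. Whether this made their differences was not tested. The osteoclast markers other than Ctsk reached at most 2.08 FPKM (Oscar), with 1 of 7 at 1 FPKM or more in at least 2 libraries. They summed to 0.412 to 1.17 FPKM in TAFH-deleted, 1.92 to 2.45 in full-length, 1.45 to 1.70 in knockout and 1.15 to 1.24 in control libraries. Macrophage and blood markers (2 of 8 at that level, Tyrobp at 0) summed to 7.63 to 8.74 FPKM in TAFH-deleted, 13.9 to 15.4 in full-length, 12.6 to 13.8 in knockout and 11.7 to 12.0 in control libraries. Epithelial markers summed to 1.20 to 4.87 FPKM in TAFH-deleted, 0.428 to 0.872 in full-length, 2.66 to 3.87 in knockout and 3.98 to 4.65 in control libraries, with Epcam, Krt8, Cldn3 and Cldn7 at 0 in every library. The part of such cells in the results was not tested.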

How the data were processed

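Transcript levels of mouse embryonic fibroblasts were measured by mRNA sequencing in 8 libraries. Per the submitters' processing notes, CASAVA 1.8, TopHat, Cufflinks and Cuffdiff were used on mm9; other versions, masking and normalization are not given in the sources used here. The authors deposited FPKM for 30028 transcripts in each library, group mean FPKM, and p-values with q-values from Cuffdiff, credited to the authors wherever given. The deposited transcript lengths are in bases. FPKM were summed per gene and chromosome, and 47 transcripts with symbols changed to dates were renamed from a GRCm38 table. Fragments were recovered by multiplying FPKM by the length less 204.1 bases. In single-transcript genes, between 96.1% and 97.4% of low values in a library then lay within 0.05 of a whole number. limma 3.58.1 (R 4.3.3, trend) was fitted on log2(FPKM + 1), a scale that understates changes of low genes, over all groups (6 samples, 2 residual and 2.15 prior degrees of freedom). Genes had at least 1 FPKM in at least 2 libraries and a longest transcript of at least 300 bases. Tests were two-sided, with Benjamini-Hochberg adjustment over 12025 genes at 0.05. Separate cultures are not named in the labels, so the spread behind the p-values may be technical.

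The 6 genes, the lists and the tests were chosen with earlier results of these data known. Genes named were the 6, the 3 candidates nearest in profile and the 2 nearest on each side of each. In each list they were up to 4 called genes or, with none, the 2 most abundant. Further genes and markers were named after their values were seen. Start sequences are from RefSeq (GRCm38.p6).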

Additional observations from a re-analysis of the deposited data

How the results depend on the processing

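Each of the 6 genes stayed lower in TAFH-deleted than in full-length rescue under every alternative tried (log2 differences between -7.53 and -3.10). The call was lost for Npnt and Plxdc2 with a pseudocount of 0.1 and without a filter, and for all 6 without full-length clone 1 or clone 2. In the comparisons with knockout they kept their direction except Vsig1 in TAFH-deleted rescue against knockout. It stood at -0.0017 and turned to 0.18 under quantile normalization, to 0.0019 without knockout replicate 2 and to 0.0067 without TAFH-deleted clone 2, against -0.0101 without TAFH-deleted clone 1. The number of genes called depended on the processing. For TAFH-deleted against full-length rescue, 315 genes were called, against 142 with a pseudocount of 0.1, 180 after quantile normalization, 4566 with all 8 libraries and 3921 with all 8 libraries and the replicate number as a block. Leaving out 1 library gave 0 to 6722. For knockout against control, 0 became 1093 without a filter, 2857 with 8 libraries and 2019 with the block, and 0 to 2712 with 1 library left out. For full-length rescue against knockout, 0 became 541, 2998 and 2232, and 0 to 3211. For TAFH-deleted rescue against knockout, 0 became 379, 1074 and 461, and 0 to 4013. Counts above 0 with a library left out, in the 3 comparisons with knockout, came from omitting a TAFH-deleted clone. Why these counts moved was not tested. Same-numbered libraries share only a number: between the rescue forms the correlation of deviations was -0.0776. The block changed the call of none of the 6 genes compared with 8 libraries unblocked. Vsig1 in knockout and TAFH-deleted cells rests on 2 fragments a library, which limits what can be said of it.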
